A study of Homo sapiens with 4 samples.

Results

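The insulin-like growth factor (IGF) axis was described across the CD133+ and CD133- cells of PLC8024, a human hepatocellular carcinoma cell line. It was taken as 10 genes, IGFBP1, IGFBP2, IGFBP3, IGFBP4, IGFBP6, IGF2, IGF1R, IGF2R, INSR and PAPPA, out of 19775 genes named on the array. Every probe set that the platform annotation assigns to a single one of these genes was used. That gave 31 probe sets of 9 genes. IGF2 had none, because its 3 probe sets are also annotated to INS-IGF2, the read-through transcript that joins it to the insulin gene, and no value is given for it. The cells were separated by flow cytometry on CD133, a membrane glycoprotein by which tumour-initiating cells are often enriched, and no other treatment is named in the labels. Each population, 1 CD133+ and 1 CD133-, is present as RMA values on the log2 scale and as linear MAS5 intensities. RMA and MAS5 are different ways of reducing the probes of a probe set to a single value, so they are not replicates. With 1 array per population and processing, no difference carries an error between cultures or sorts and no test was possible. The genes were chosen by their place in the IGF axis with the RMA and MAS5 differences of these same arrays already known, so their values are a description.

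IGF1 and IGF2 are growth factors that act through the receptor tyrosine kinase IGF1R and, for IGF2, through one isoform of the insulin receptor INSR. IGF2R binds IGF2 at the cell surface and carries it to lysosomes without a tyrosine kinase signal. The IGF binding proteins (IGFBPs) are secreted proteins that hold IGFs in the extracellular space, limit their access to receptors and lengthen their life in blood. The protease PAPPA cleaves IGFBP4 and thereby frees the bound growth factor. Liver is the main source of circulating IGF1 and of IGFBP1, and IGF2 is a fetal growth factor whose transcript often returns in liver tumours.

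The CD133+ population had higher transcript of IGFBP4 and IGFBP3, and none of the 3 receptors was 2-fold apart. The floor was the median of an RMA column, 5.16 in CD133+ or 5.14 in CD133-, and a gene had to reach it in the population where its RMA value was higher. To be counted, a gene above the floor also had to be at least 2-fold apart by both processings, in one direction. Of the 9 genes with a probe set, 8 reached the floor, of which 2 were counted as higher and 0 as lower. Of all 13116 genes that reached the floor, 2.25% were counted as higher, 1.09% as lower and 3.34% in either direction. By probe set, 18 of 31 reached the floor, of which 3 were counted as higher and 0 as lower, where 1.92% and 1.13% of all 23625 probe sets above the floor were counted. The median RMA difference (CD133+ minus CD133-) was 0.49 over the 8 members that reached the floor, of which IGFBP6 did so in CD133+ alone, and 0.00 over all genes above the floor. Fewer cells with a transcript and less of it per cell cannot be told apart in such bulk samples.

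**Figure D1:**
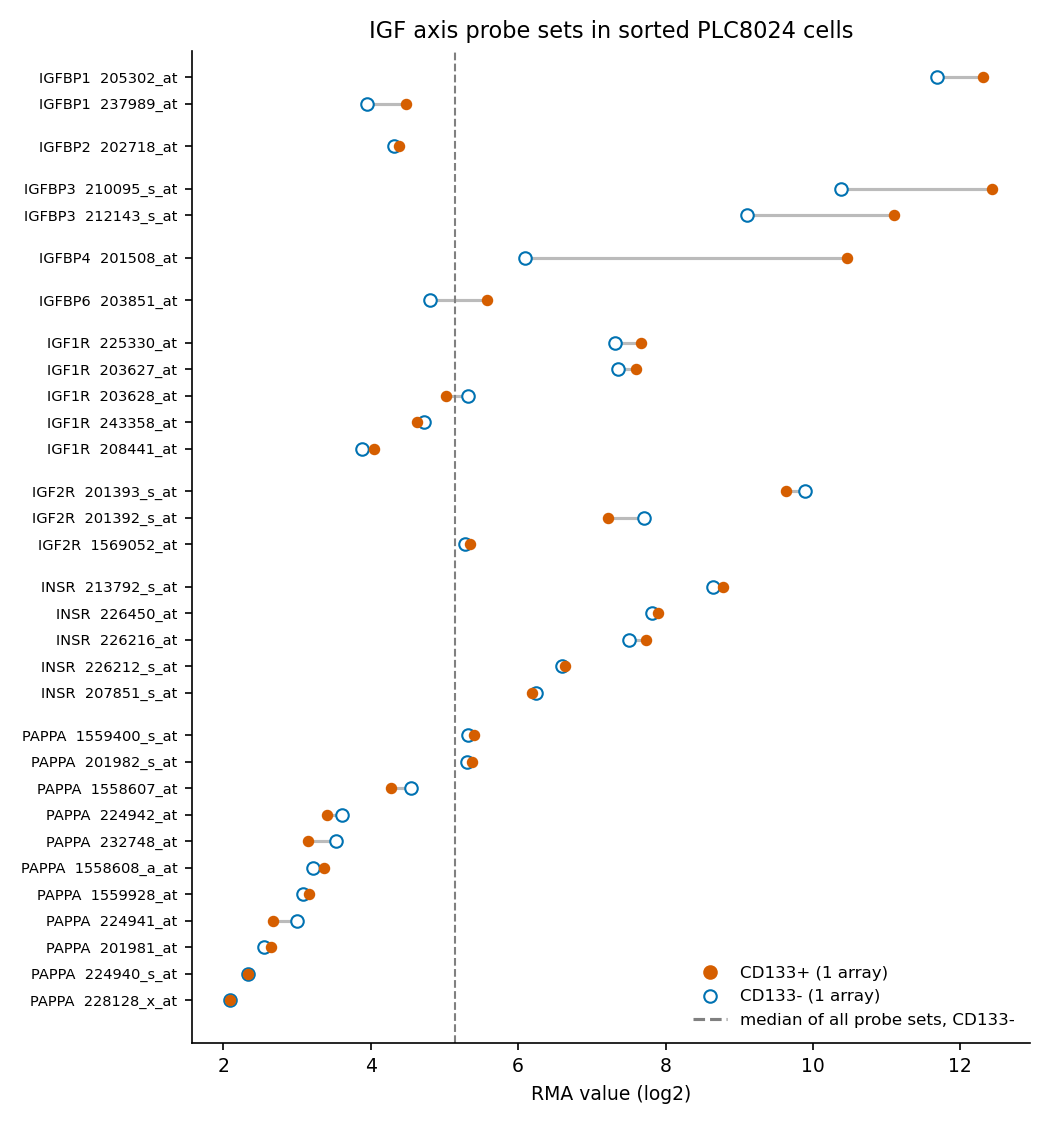
RMA value (log2) of each of the 31 probe sets in the CD133+ population (filled) and the CD133- population (open), 1 array each, with the median of the CD133- column as a dashed line. IGFBP4 runs from 6.10 to 10.46 and the IGFBP3 probe sets are apart by 2.05 and 2.0, while the pairs of INSR nearly coincide. Values of different probe sets cannot be set against each other as levels.

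The proximal promoters of the counted genes, IGFBP3 and IGFBP4, are shown because these are the members whose transcripts differed most and in the same direction. They are the 250 bases before the annotated start in RefSeq, assembly GRCh38.p14, read 5′ to 3′ on the gene's strand, with every match to a searched motif in capitals. Of the 10 genes, 8 had an entry in the promoter table; IGFBP1 and IGF2 had none.
IGFBP3 (chr7:45921273-45921522, minus strand): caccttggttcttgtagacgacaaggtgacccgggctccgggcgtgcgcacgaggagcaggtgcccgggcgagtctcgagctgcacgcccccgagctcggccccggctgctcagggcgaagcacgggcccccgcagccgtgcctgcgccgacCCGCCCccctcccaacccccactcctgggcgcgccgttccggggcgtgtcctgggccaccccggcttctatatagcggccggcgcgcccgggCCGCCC
IGFBP4 (chr17:40443200-40443449, plus strand): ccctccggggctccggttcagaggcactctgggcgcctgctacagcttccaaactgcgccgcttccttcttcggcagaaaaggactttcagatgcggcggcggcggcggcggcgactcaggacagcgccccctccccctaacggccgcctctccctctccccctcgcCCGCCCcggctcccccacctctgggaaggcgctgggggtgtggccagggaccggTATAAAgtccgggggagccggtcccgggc
The motifs searched on both strands were the TATA box (TATAAA), the CCAAT box (CCAAT), the GC box (GGGCGG), the cAMP response element (TGACGTCA), the core of the insulin response element (CAAAACA) and the FOXO core (GTAAACA). No matches overlap in the promoters of IGFBP3 and IGFBP4. The IGFBP4 promoter had a TATA box from -29 to -24 relative to the start and a GC box on the opposite strand from -83 to -78. The IGFBP3 promoter had 2 GC boxes on the opposite strand, from -98 to -93 and from -6 to -1, and no match to the TATA box as spelled here. TATAAA occurs in 11.1%, GGGCGG in 42.3%, CCAAT in 33.0%, TGACGTCA in 1.77% and CAAAACA in 4.34% of the 27305 promoters of this length. GC made up 76.0% of the IGFBP3 and 71.6% of the IGFBP4 stretch, against a median of 58.0% over all promoters. The share was higher still in IGF1R, IGF2R and INSR, at 81.2%, 79.2% and 78.4%, and none of these was counted. In IGFBP6, IGFBP2 and PAPPA it was 61.2%, 56.8% and 48.0%. Among the other 6 promoters, the FOXO core was found in IGFBP6 and PAPPA, and in 2.98% of all promoters. The GC box was also found in IGFBP2, IGFBP6, IGF1R, IGF2R and INSR, and the TATA and CCAAT boxes in PAPPA. Of the 15384 promoters of genes on the array, 8.31% had the TATA box, 56.3% the GC box, 34.1% the CCAAT box and 2.25% the FOXO core. The cAMP response element was in 2.38% of these and the insulin response element core in 3.43%. A match is a description of letters in this window.

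IGFBP4, which binds IGFs and is known mainly as an inhibitor of their action, read 10.46 in CD133+ and 6.10 in CD133- by RMA. Its MAS5 intensities were 5969 and 206.6. Both processings thus put the CD133+ array far above the CD133- array, and the CD133- value was still above the floor. The ratio was 20.6-fold in RMA and 28.9-fold in MAS5. The RMA difference ranked 1 and the MAS5 ratio ranked 7 from the highest among the genes above the floor. IGFBP4 has 1 probe set, so no second one could be set beside it.

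By Euclidean distance over 4 values, the RMA and log2 MAS5 values of both populations, the gene nearest to IGFBP4 was PROM1, which encodes CD133 itself and so marks the sort, at 0.45. This distance sets values of different probe sets side by side, so it describes array values and does not rank transcript levels. IGFBP4 was taken here as the member with the largest RMA difference, and the distance uses the values that give this difference. Genes near it therefore have large differences by construction, and PROM1 ranked 2 in RMA difference. The nearness is no separate evidence of a link. PROM1 had RMA values of 10.35 and 6.04 and MAS5 intensities of 5849 and 279.1. The next were LINC00473, a long noncoding RNA, at 0.54, and UCHL1, a ubiquitin hydrolase abundant in neurons, at 1.27. Within each gene, the RMA difference and MAS5 log2 ratio were 4.32 and 4.39 for PROM1, 4.0 and 4.19 for LINC00473, and 3.24 and 3.74 for UCHL1, against 4.36 and 4.85 for IGFBP4. Both measures rest on 2 populations only.

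IGFBP3, the main carrier of IGFs in serum, was higher in CD133+ in both of its probe sets. The representative one, the one of highest mean RMA value, had 12.43 in CD133+ and 10.38 in CD133-, and MAS5 intensities of 26062 and 5492. The second had RMA values of 11.10 and 9.10 and MAS5 intensities of 8126 and 1698. Each probe set placed CD133+ well above CD133-, with RMA differences of 2.05 and 2.0 and MAS5 log2 ratios of 2.25 and 2.26. The representative difference is 4.13-fold in RMA and 4.75-fold in MAS5. Across 6170 genes with a pair of probe sets that reached the floor, the pair's RMA differences were apart with an SD of 0.35, and the MAS5 log2 ratios with an SD of 0.79. The IGFBP3 and IGFBP4 differences exceed this technical spread, which leaves out all variation between sorts, cultures and arrays. Both IGFBP3 probe sets carry the suffix _s_at, which marks probes that match more than 1 transcript, so IGFBP3 has no value without such probe sets.

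IGFBP1, the binding protein that hepatocytes secrete and insulin suppresses, was not counted. Its representative probe set read 12.30 in CD133+ and 11.69 in CD133- by RMA, with MAS5 intensities of 29250 and 18610. CD133+ had the higher value in both, with an RMA difference of 0.61 and a MAS5 log2 ratio of 0.65. Its other probe set lay under the floor in both populations, with an RMA difference of 0.54 and a MAS5 ratio of 3.28 from intensities of 63.7 and 6.54. Among all genes above the floor 95% of RMA differences lay between -0.78 and 0.96, and IGFBP1 was inside that range.

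IGFBP6, which binds IGF2 in preference to IGF1, read 5.58 in CD133+ and 4.81 in CD133- by RMA, the latter under the floor, so no fold is given. Its MAS5 intensities were 169.2 and 69.5. The RMA difference of 0.77 was short of 2-fold and the MAS5 log2 ratio of 1.28 was past it, so the gene was not counted. Its single probe set was also inside the central 95% of all genes in both measures, which in MAS5 ran from -1.62 to 1.98.

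IGFBP2, a binding protein of fetal liver and of many tumours, was the member under the floor. It had RMA values of 4.38 and 4.32 and MAS5 intensities of 5.19 in CD133+ and 5.76 in CD133-. Both populations were thus dim in both processings. Of the 5 measured binding proteins, 2 were counted, and IGFBP6 reached the floor through its CD133+ value alone.

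The receptors showed small differences, and 0 of their 11 probe sets above the floor was counted. Over the whole array the shares were 1.92% for higher and 1.13% for lower. With shares this low, a count of 0 is not unusual for 11 probe sets, which come from 3 genes. IGF1R, the IGF1 receptor, read 7.67 in CD133+ and 7.31 in CD133- by RMA in its representative probe set, with MAS5 intensities of 1007 and 731.7. A second IGF1R probe set had an RMA difference of 0.24 with a MAS5 ratio of -0.09, and another, below the floor in CD133+, had -0.31 and -0.14. The probe sets of IGF1R therefore did not share a sign. The SD of 0.35 between paired probe sets corresponds to 0.25 for the difference of a single one. The representative difference of 0.36 and the -0.31 are past 0.25 but have opposite signs. A single SD is no cut-off, so being past it does not set a difference apart from scatter. Both are within 0.45, the SD of the RMA differences of all probe sets above the floor, and all are short of 2-fold.

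INSR, the insulin receptor, had 5 probe sets, all above the floor. The representative read 8.78 in CD133+ and 8.64 in CD133- by RMA, with MAS5 intensities of 1568 and 1299. RMA differences ran from -0.06 to 0.23 and MAS5 ratios from -0.04 to 0.60, with 4 of 5 above 0 in each. None of the RMA differences is past 0.25, the SD for a single probe set.

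IGF2R, the IGF2 clearance receptor, was the member whose representative probe set was lower in CD133+ in both processings. That probe set read 9.63 in CD133+ and 9.89 in CD133- by RMA, with MAS5 intensities of 3650 and 4528. A second had 7.22 and 7.71 in RMA and 593.4 and 887.2 in MAS5. Both were lower in CD133+, by RMA differences of -0.26 and -0.49, while the third had 0.06. All are short of 2-fold. Those of -0.26 and -0.49 are past the SD of 0.25 for a single probe set, which is no cut-off. The -0.26 is within and the -0.49 slightly past 0.45, the SD over all probe sets above the floor. Neither is thereby set apart from scatter.

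PAPPA, the protease that cleaves IGFBP4, had 11 probe sets, and its transcript stayed near or under the floor in both populations. All 11 had MAS5 intensities under the column medians of 86.0 in CD133+ and 86.1 in CD133-, and 9 were under the RMA floor. The 2 above it had RMA values of 5.40 and 5.37 in CD133+ and of 5.32 and 5.31 in CD133-, with differences of 0.07 and 0.06. In RMA the differences of the 11 probe sets ran from -0.37 to 0.14, and 2 were exactly 0. In MAS5 they ran from -3.57 to 3.0, with 6 at least 2-fold lower and 1 at least 2-fold higher in CD133+. PAPPA therefore shows large MAS5 ratios with no like difference in RMA.

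Such ratios are common among dim probe sets of these arrays. Of the 17472 probe sets under the floor, 41.1% were at least 2-fold apart in MAS5 and 0.738% in RMA, and the SD of all their differences was 1.53 in MAS5 and 0.28 in RMA. Of the 13 probe sets of the IGF axis under the floor, 8 were at least 2-fold apart in MAS5, and the largest RMA difference was 0.54. Above the floor, 13.1% of all probe sets were at least 2-fold apart in MAS5. In 16 of the 18 IGF axis probe sets above the floor RMA and MAS5 had the same sign, as did 77.5% of all those above the floor and 62.1% of those under it.

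**Figure D2:**
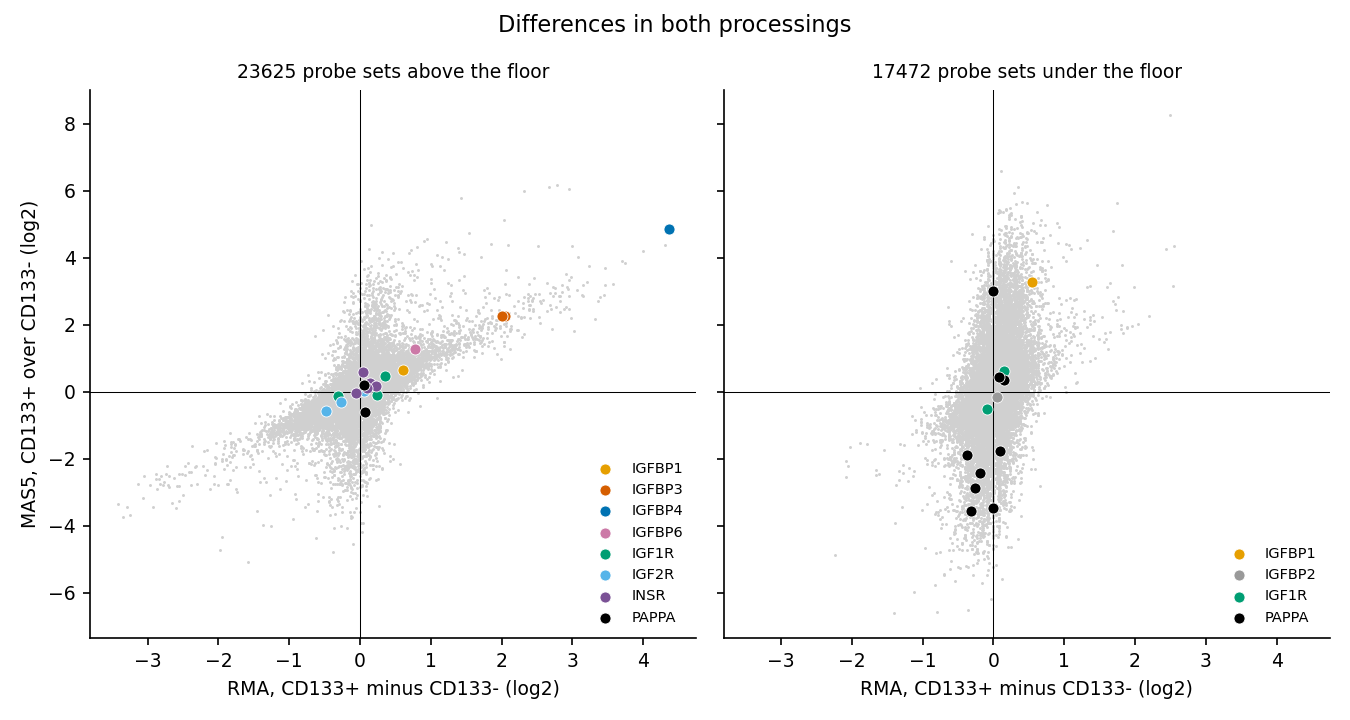
RMA difference (horizontal, log2) against MAS5 log2 ratio (vertical), CD133+ relative to CD133-, for the probe sets above the floor (left) and under it (right), with all probe sets in grey and those of the IGF axis in colour. IGFBP4 lies at 4.36 and 4.85 and the IGFBP3 pair near 2 on both axes, while the PAPPA probe sets under the floor spread from -3.57 to 3.0 in MAS5 and lie near 0 in RMA.

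The binding protein genes lie in pairs or alone beside genes of the tensin family, which encode focal adhesion proteins, and this order was used to look at their surroundings. In the RefSeq order of protein-coding genes, IGFBP1 and IGFBP3 are neighbours on chromosome 7 next to TNS3, IGFBP2 and IGFBP5 neighbours on chromosome 2 near TNS1, IGFBP4 lies by TNS4 on chromosome 17, and IGFBP6 by TNS2 on chromosome 12. None of the 4 tensin genes was counted. TNS4, next to IGFBP4, read 6.24 in CD133+ and 6.46 in CD133- by RMA, a difference of -0.22 with a MAS5 ratio of 2.69. TNS3 had a difference of 0.48 in RMA and 0.27 in MAS5, TNS1 of 0.25 and 1.45, and TNS2 of -0.28 and 0.74, of opposite sign. Of the 3 protein-coding genes on each side of IGFBP4, 5 were above the floor, with RMA differences from -0.22 to 0.27, MAS5 ratios from -1.77 for GJD3 to 3.10 for RARA, and 0 counted. TOP2A, the DNA topoisomerase of dividing cells that directly precedes IGFBP4 in this order, had a difference of 0.09 in RMA and -0.19 in MAS5. Around IGFBP3, 4 of the neighbours were above the floor, from -0.06 for HUS1 to 0.61 for IGFBP1 in RMA and from 0.07 to 0.65 in MAS5, with 0 counted. In RMA no measured gene beside IGFBP4 was near its difference of 4.36. By MAS5 alone RARA and TNS4 were also more than 2-fold higher in CD133+, with RMA differences of 0.27 and -0.22.

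**Figure D3:**
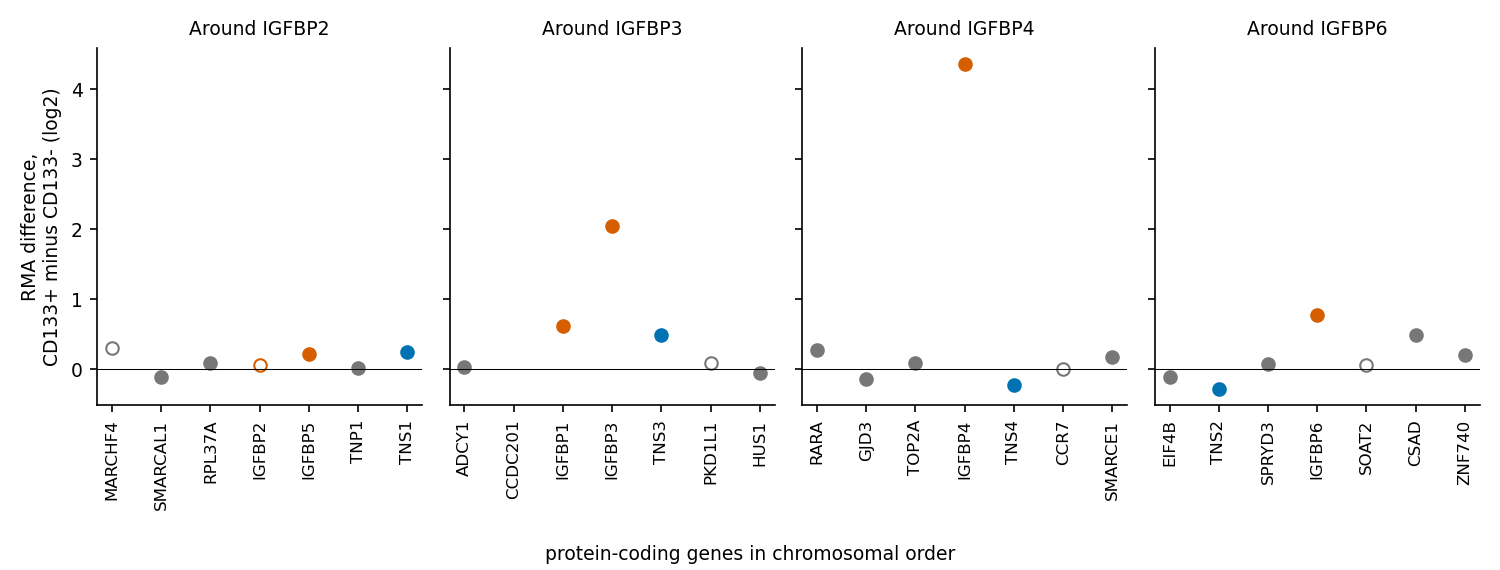
RMA difference (CD133+ minus CD133-, log2) of IGFBP2, IGFBP3, IGFBP4 and IGFBP6 and of the 3 protein-coding genes on each side in RefSeq order, with IGFBP genes in orange, tensin genes in blue, other genes in grey and genes under the floor as open symbols; genes with no named probe set have no point. IGFBP4 at 4.36 stands above its neighbours, which lie between -0.22 and 0.27, and IGFBP3 at 2.05 above its own, between -0.06 and 0.61.

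The other genes of the pathway were taken from 8 lists of 108 genes, 98 of which had a named probe set. Of the 82 that reached the floor, 6 were counted as higher and 5 as lower, 13.4% in all against 3.34% of all genes, with a median RMA difference of -0.06. The lists were drawn up with results of these arrays known, so they give no independent support.

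Among the other ligands, receptors, carriers and binding proteins, 0 of 4 genes above the floor was counted. IGF1, the growth factor itself, read 5.62 in CD133+ and 5.74 in CD133- by RMA, with a MAS5 ratio of -0.20. IGFBP5, which neighbours IGFBP2, differed by 0.22 in RMA with a MAS5 ratio of -1.97, and IGFBP7, a low-affinity relative, had 0.15 and 1.47. Their MAS5 intensities in CD133+ and CD133- were 5.82 and 22.8 for IGFBP5 and 28.3 and 10.2 for IGFBP7. All lie under the column medians of 86.0 and 86.1, where large MAS5 ratios are common. IGFALS, the acid-labile subunit of the serum IGF complex, had 0.05 and -0.45. Of 12 genes with an IGFBP-type domain, such as the matrix-associated CCN proteins and HTRA proteases, 7 were above the floor and 0 was counted. CCN2 and CCN1 had RMA differences of 0.11 and -0.08, and CRIM1, HTRA1 and CCN6 had -0.74, -0.19 and -0.16.

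Among the IGFBP proteases and their inhibitors, 1 of 8 genes was counted. It was PLAU, the urokinase, with an RMA difference of 1.40 and a MAS5 ratio of 3.32, from a CD133- value under the floor. CTSL and CTSD, lysosomal cathepsins, had RMA differences of -0.33 and -0.06, ADAM12, a metalloprotease, had 0.22, and PLG, the plasmin precursor, had 0.20. PAPPA2, the relative of PAPPA, had -0.06, and STC2, which inhibits PAPPA, had RMA values of 7.63 and 7.59.

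Cell surface partners of IGF2 and the binding proteins held 3 counted genes of 8. CAV1, which forms caveolae, read 8.75 in CD133+ and 6.18 in CD133- by RMA and was 5.90-fold higher, with differences of 2.56 and 2.68 in its pair of probe sets. LRP2, the endocytic receptor megalin, differed by 1.32 in RMA and 1.38 in MAS5, with 0.81 by RMA in its other probe set. GPC3, a proteoglycan and liver tumour antigen, had RMA values of 9.74 and 10.97 and was 2.35-fold lower in CD133+, with -0.78 in its other probe set. LRP1 and TMEM219, both described as receptors of IGFBP3, had RMA differences of -0.02 and 0.13. TF, which encodes transferrin, had -0.23, and the integrin subunits ITGA5 and ITGB1 had 0.08 and -0.03.

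Among regulators of the IGF2 transcript, 1 of 8 was counted. PLAGL1, an imprinted zinc finger factor, read 7.54 in CD133+ and 5.63 in CD133- by RMA and was 3.76-fold higher, its 3 probe sets differing by 1.91 to 2.59. The RNA-binding proteins IGF2BP1, IGF2BP2 and IGF2BP3 had differences of -0.12, 0.23 and -0.24, although the 4 probe sets of IGF2BP3 ran from -0.93 to 0.18. HMGA2 and HMGA1, chromatin proteins, had 0.22 and 0.21.

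Of 13 receptor adaptors and phosphatases, 1 was counted in each direction. GRB10, an imprinted adaptor that inhibits insulin and IGF1 receptor signalling, read 7.03 in CD133+ and 8.30 in CD133- by RMA and was 2.41-fold lower, with -1.70 to -0.80 in the 3 probe sets that reached the floor. SOCS2, a feedback inhibitor of growth hormone signalling, had values of 9.13 and 8.06 and was 2.09-fold higher, with 0.83 in its other probe set above the floor. SOS1, which activates RAS, IRS2, the docking protein of both receptors, SHC1 and SH2B2 differed by -0.65, -0.53, -0.40 and 0.24, short of the count.

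In the PI3K, AKT and mTOR pathway, 1 of 20 genes was counted. TRIB3, a pseudokinase that binds AKT, read 8.80 in CD133+ and 9.89 in CD133- by RMA and was 2.13-fold lower. The list's median was -0.21, and 4 of its 20 genes had RMA differences above 0, against 6319 of the 13116 genes above the floor. In MAS5 the median was -0.15, with 7 of the 20 above 0 against 6627 of all genes. RPS6KB1, the S6 kinase, PIK3R1, a PI3K regulatory subunit, and INPPL1, an inositol phosphatase, had -0.84, -0.55 and -0.51, and DEPTOR, an mTOR inhibitor, had 0.52.

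Of the FOXO factors and insulin-responsive genes, 3 of 15 were counted. PCK1, the gluconeogenic enzyme that insulin represses, differed by -2.52 in RMA and by -2.45 in MAS5, from a CD133+ value below the floor. PPARGC1A, a coactivator of gluconeogenic genes, differed by -1.13 in RMA and was 2.19-fold lower. TXNIP, a glucose-induced arrestin-like protein, had values of 7.36 and 6.34 and was 2.03-fold higher, with 0.51 in its lowest probe set. BCL6, a transcriptional repressor, had -1.30 in RMA and -0.97 in MAS5, which misses the count in MAS5, and FOXO1 had 0.64 and 0.76. CCNG2, a FOXO-induced cyclin, had an RMA difference of 0.40. IGFBP1, which insulin represses as it does PCK1, had a difference of the opposite sign to PCK1, 0.61, and was not counted.

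**Figure D4:**
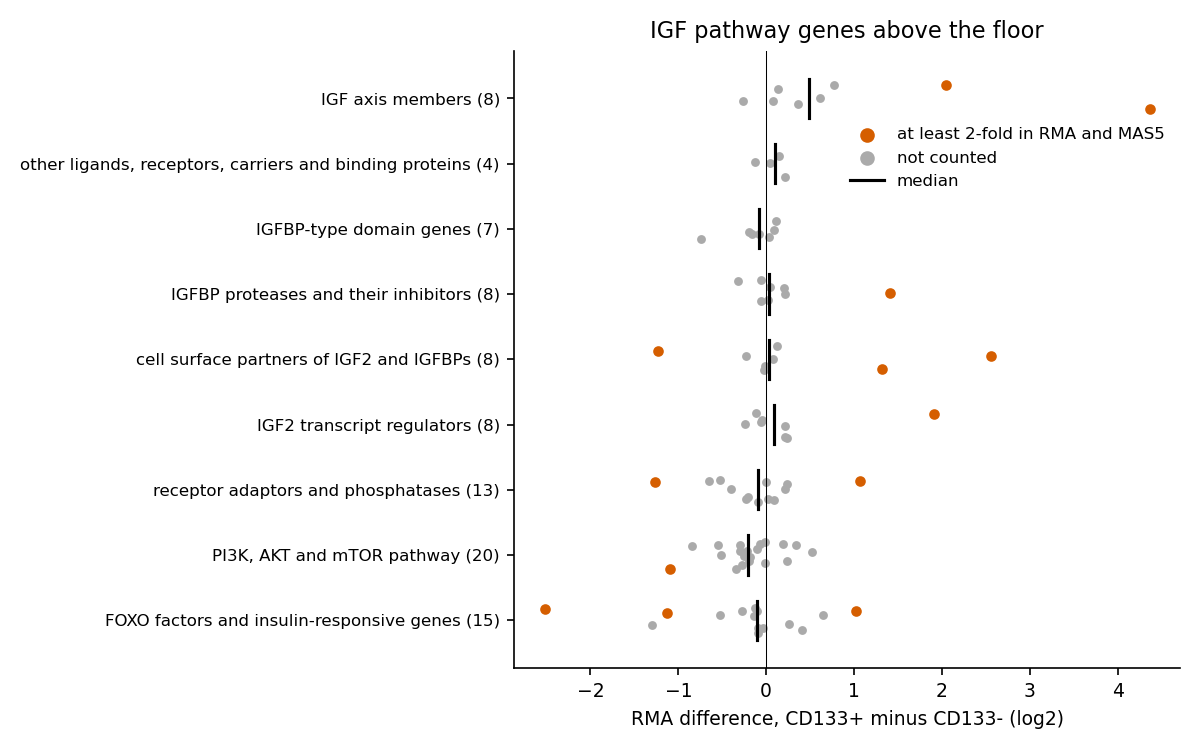
RMA difference (CD133+ minus CD133-, log2) of each gene above the floor in the IGF axis (top) and in the 8 pathway lists, with the number of genes in brackets, genes counted in RMA and MAS5 in orange and the median as a bar. The axis members reach 4.36, and the PI3K, AKT and mTOR list has its median at -0.21.

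The arrays were checked against the labels and the cell type. PROM1 was 19.9-fold higher in the CD133+ column. Of the hepatocyte and liver tumour markers, 8 of 8 measured were above the floor in both populations and 3 were lower in CD133+ (ALB, AFP and APOA1). TTR had MAS5 intensities of 82.1 in CD133+ and 20.5 in CD133-, under the column medians of 86.0 and 86.1. KRT8 and KRT18 were above the floor and EPCAM under it in both. CDH1, an epithelial cadherin, was 6.99-fold higher in CD133+, with an RMA difference of 1.28 in its other probe set. Of the markers of other cell types, PTPRC and CD14 (leukocyte), VWF, CDH5 and KDR (endothelial) and LUM, COL3A1 and PDGFRB (fibroblast and stellate) were under the floor in both populations, and CD3E and DCN were above it with RMA differences of 0.07 and 0.09. LYZ was 3.31-fold higher and PECAM1 3.38-fold lower in CD133+, and COL1A1 had 8.27 and 8.08. The 4 PECAM1 probe sets above the floor had RMA differences from -1.96 to 0.17. LUM had RMA values of 4.54 and 2.01, a difference of 2.53 under the floor. Its MAS5 intensities were 131.7 in CD133+, above the column median of 86.0, and 14.7 in CD133-. RMA values over the 5 fibroblast and stellate markers ran from 4.34 to 8.27 in CD133+ and from 2.01 to 8.08 in CD133-, those of the 4 measured leukocyte markers from 3.01 to 11.14 and from 2.94 to 9.42, and those of the 4 endothelial markers from 2.27 to 6.11 and from 2.30 to 7.87. The log2 of the summed linear values was 8.70 and 8.48, 11.20 and 9.60, and 6.83 and 8.14 in the same order. Of the erythroid markers, 2 were measured, both above the floor, with RMA values from 5.57 to 6.07 in CD133+ and from 5.28 to 6.07 in CD133- and 0 counted. The erythroid gene ALAS2 had MAS5 intensities of 7.11 and 4.82, so a value above the RMA floor does not show that a transcript is present. The part of other cells in the IGFBP differences was not tested.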

How the data were processed

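The array values of the 4 deposited samples, 1 CD133+ and 1 CD133- population each in 2 processings, were used as they stand. Per the submitters' processing notes the authors used GCOS, MAS5 and RMA. The authors deposited linear intensity values as MAS5 output and log2 values as RMA output, per the labels. Versions, and which arrays were normalized together, were not given in the sources used here. The MAS5 columns had 2% trimmed means of 499.9 in both populations, the form of global scaling, and the rank correlation (Spearman) was 0.986 between the RMA columns and 0.920 between the MAS5 columns, over 54675 probe sets.

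GEO's platform annotation gave the gene names. Of the probe sets 41097 had 1 gene, 1801 several and 11777 none or were not listed, and 41043 received a current symbol through a RefSeq table of assembly GRCh38.p14. For each gene the probe set of highest mean RMA value was its representative. Calculations used Python 3.11.15, pandas 2.3.3 and numpy 2.4.6. The counting code was run on simulated differences set well past the 2-fold rule, which does not test how the rule performs on these arrays. The number of arrays limits the precision, and no p-value was computed. The files used here hold no detection calls, so a floor took their place. The genes named in the text are all members, PROM1, the 3 genes most like the member with the largest difference, and in each list every counted gene and up to 4 further genes with the largest absolute RMA difference. Others (STC2, CTSD, CCN1, LRP1, IGF2BP1 and the neighbouring and marker genes) were named for their role or place after their values were seen. The members and lists were chosen with earlier results of these data known. Alternatives changed the representative probe set, the floor, the processing, the pseudocount, the scaling and the fold.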

Additional observations from a re-analysis of the deposited data

How the results depend on the processing

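IGFBP3 and IGFBP4 were the members counted in 8 of the 11 alternatives tried. Among these 8, removing the floor and using RMA alone only loosen the main rule, so neither could drop either gene. Leaving out _x_at and _s_at probe sets gave 1 member, IGFBP4, because no IGFBP3 probe set was left. A 1.5-fold rule gave 4, adding IGFBP1 and IGFBP6, and counted 698 of all 13116 genes above the floor as higher and 547 as lower. MAS5 alone gave 3, adding IGFBP6, and counted 1004 of all 13116 genes as higher and 735 as lower. The main rule counted 295 and 143 of them. The difference of IGFBP4 ranged from 4.36 to 4.85 and that of IGFBP3 from 2.03 to 2.25 over the alternatives that gave one. The lower ends are RMA differences and the upper ends MAS5 log2 ratios. Changing the floor or using RMA alone cannot move these values. For IGFBP4, with 1 probe set, the choice of probe set cannot either. IGF2R, which was not counted, had 0.06 without _x_at and _s_at probe sets. PAPPA ranged from -0.71 in quantile normalized MAS5 to 0.12 in RMA scaled to housekeeping genes. In the pathway lists, 11 genes were counted, and 17 in MAS5 alone. The median over all probe sets gave 6 (without GPC3, PLAU, PPARGC1A, SOCS2 and TXNIP), where 216 of all 11372 genes were higher and 113 lower. Leaving out _x_at and _s_at probe sets gave 7 (without PCK1, PLAGL1, PLAU and TXNIP), where 237 of all 10115 genes were higher and 111 lower. A floor in MAS5 as well as in RMA, chosen after seeing the data, removed PAPPA and left 7 of 8 members above it, with the same 2 counted. Scaling to 12 housekeeping genes, whose median differences were -0.05 in RMA and 0.10 in MAS5, gave 2 members and 12 pathway genes. No paired analysis was possible because each population has 1 array per processing. Signal near background limits PAPPA, IGFBP2 and IGFBP6 among the members, and genes such as IGFBP5 and IGFBP7 in the lists.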

Other observations

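ARRDC4, the arrestin-like gene that directly precedes IGF1R in the RefSeq order, had RMA values of 4.01 in CD133+, under the floor, and 5.44 in CD133-, a difference of -1.43 with a MAS5 ratio of -0.73. Its relative TXNIP was on the other side, with 1.02 in RMA and 1.23 in MAS5. SYNM, an intermediate filament gene on the other side of IGF1R, had RMA values of 7.32 and 8.21 and a difference of -0.89, with -0.79 in MAS5. IGF1R itself had 0.36. RARA, the retinoic acid receptor gene 3 places from IGFBP4, differed by 0.27 in RMA with a MAS5 ratio of 3.10. These genes were chosen after their values were seen.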
